A study of Mus musculus with 17 samples.

Results

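Phf21b, Slc6a13, Tmem200a and Col8a2 were chosen as genes of little-known uterine role that stood among the strongest early risers after estradiol (E2), an estrogen. They are 4 of 14737 genes kept for the tests and are read by 6 of the 45281 probes of the table. All probes that the platform annotation gives to these symbols were used: 1 each for Phf21b, Slc6a13 and Tmem200a and 3 for Col8a2. They were selected on the measured rise from 0 h to 3 h and 6 h, so those rises are described below without a test.

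The study measured total RNA of mouse uterus on Illumina bead arrays. Mice labelled wild type (WT) or knockout (KO) for Egr1, an immediate-early zinc-finger transcription factor, gave groups at 0 h and at 3, 6 and 24 h after E2. WT at 3 h had 3 arrays and each of the other 7 groups had 2, which gave 17 arrays in all. The labels do not state the dose of E2, any vehicle or ovariectomy, the age and strain of the mice or the design of the knockout allele. Whether arrays of 1 group hold RNA of different mice is not labelled either, and p-values then measure only the spread between these arrays, which may be technical.

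E2 acts in the uterus mainly through the nuclear estrogen receptor, which switches on a first wave of transcripts within hours, well before the epithelium divides. Phf21b encodes a PHD-finger chromatin protein, a relative of the PHF21A subunit of LSD1-CoREST histone demethylase complexes. Slc6a13 encodes GAT2, a sodium-coupled plasma membrane transporter of GABA and taurine. Tmem200a encodes a membrane protein with no settled function, and Col8a2 encodes the alpha 2 chain of collagen VIII, a short-chain, network-forming collagen of subendothelial matrix and of Descemet's membrane in the cornea.

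The sequence just upstream of the start site was searched in RefSeq windows of 250 bases (mouse build GRCm38.p6), and all 4 genes matched the table. The windows of Slc6a13 and Col8a2 are shown because they hold the matches found at a first start site and lie outside the annotated gene. The Phf21b and Tmem200a windows overlap the annotated span of the gene and are not printed. Both are written 5′ to 3′ on the strand of the gene, with GGGCGG, the core of an SP1 site, or its reverse complement CCGCCC in capitals.
Slc6a13, chr6:121300038-121300287, plus strand: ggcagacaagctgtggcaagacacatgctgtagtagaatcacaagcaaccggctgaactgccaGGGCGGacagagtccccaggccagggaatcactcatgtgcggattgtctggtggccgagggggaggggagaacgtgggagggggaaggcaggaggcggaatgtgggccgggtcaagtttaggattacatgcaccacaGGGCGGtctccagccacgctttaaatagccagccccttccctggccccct
Col8a2, chr4:126286544-126286793, plus strand: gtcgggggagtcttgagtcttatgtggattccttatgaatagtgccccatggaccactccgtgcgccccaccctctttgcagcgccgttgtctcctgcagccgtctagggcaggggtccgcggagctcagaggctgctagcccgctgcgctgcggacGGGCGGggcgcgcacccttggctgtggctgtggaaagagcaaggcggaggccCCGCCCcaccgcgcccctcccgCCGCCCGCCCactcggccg

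The Slc6a13 window held 2 matches to the SP1 core and the Col8a2 window held 4, of which the last 2 share bases. No match was found in the Phf21b window or in either Tmem200a window. Of 32851 mouse windows of the same length, 32.74% held the SP1 core. None of the 7 windows of the 4 genes held a full estrogen response element (GGTCA, any 3 bases, TGACC), which 0.06% of all windows held, or the EGR1 core GCGNGGGCG, which 4.7% held. None held the AP-1 site TGANTCA either, against 6.75% of all windows. An estrogen response half-site, AGGTCA, lay in the window of the last of 3 Slc6a13 start sites alone, against 14.02% of all windows. Both strands were searched, and these are matches of letters in short windows. G and C made up 60.0% of the Phf21b window, 54.8% and 58.4% of the Tmem200a windows and 70.0% of the Col8a2 window. For Slc6a13 the share was 60.8% at the first start site and 51.6% and 49.6% at the others, and the median of all windows was 52.4%.

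Each array had the same distribution, with a lowest value of 7.39, a median of 8.20 and a highest value of 15.94 on the log2 scale. Arrays of a group correlated at 0.990 to 0.997 over all probes, and no pair was identical. The Egr1 probe averaged 12.37 ± 0.19 in WT and 13.55 ± 0.11 in KO at 0 h (SD, n = 2 each), and 14.79 ± 0.20 (n = 3) and 14.64 ± 0.07 (n = 2) at 3 h. It averaged 13.91 ± 0.09 and 14.65 ± 0.14 at 6 h, and 11.74 ± 0.49 and 13.39 ± 0.16 at 24 h (n = 2 each). KO means were thus higher than WT at 0, 6 and 24 h and 0.15 lower at 3 h, within the spread of the WT arrays. The labels do not place the probe inside or outside the deleted sequence, so the differences below are between the arrays labelled KO and WT. All 9 epithelial, 8 stromal and 7 smooth muscle markers passed the filter on low values. In a whole-organ sample fewer cells of a type and less RNA per cell cannot be told apart. At 3 h, 8 of 8 stromal fibroblast markers fell in WT (median log2 change -1.06) and 5 of 8 in KO (-0.56), where 24.5% of all genes fell in WT and 21.4% in KO. All 5 adipocyte markers fell in both (medians -1.41 and -2.68). The part of these shifts in the rises below was not tested.

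Phf21b had the largest rise of the 4 at 3 h, and less of it was left at 6 h than for the other 3. In WT its probe read 8.97 and 8.99 at 0 h, then 13.54, 13.51 and 13.81 at 3 h. It read 12.00 and 11.92 at 6 h and 9.50 and 9.80 at 24 h. The order was 3 h, 6 h, 24 h and 0 h, with no overlap between any pair of these groups. In KO it read 9.11 and 8.94 at 0 h, 13.22 and 12.77 at 3 h, 11.53 and 12.10 at 6 h, and 9.33 and 9.03 at 24 h. In KO, 0 h and 24 h overlapped.

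The mean Phf21b rise at 3 h was 4.64 in WT (25.0-fold) and 3.96 in KO (15.6-fold), the highest of all 14737 genes in both. At 6 h, 64.2% of the WT rise and 70.4% of the KO rise was left on the log2 scale. The step from 3 h to 6 h was -1.66 in WT (95% interval -2.02 to -1.30, adjusted p = 2.09e-05) and -1.17 in KO (adjusted p = 0.000538). Phf21b in WT was still 0.67 above its start at 24 h (1.59-fold, adjusted p = 0.00982), and in KO 0.15 above (adjusted p = 0.574). The WT difference was not called without replicate 2 of the 24 h arrays (0.53, adjusted p = 0.101).

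Slc6a13 in WT was as high at 6 h as at 3 h, within the spread of its arrays, and in KO it was higher at 6 h. In WT it read 8.03 and 8.40 at 0 h, 12.00, 12.14 and 12.06 at 3 h, 12.08 and 12.16 at 6 h, and 8.40 and 8.50 at 24 h. The 3 h and 6 h arrays overlapped, and all 5 lay above all arrays of 0 h and 24 h. In KO it read 9.13 and 8.66 at 0 h, 11.67 and 11.23 at 3 h, 12.07 and 12.02 at 6 h, and 8.78 and 8.82 at 24 h. In KO the 6 h arrays lay above the 3 h arrays. In WT at 0 h the Slc6a13 arrays lay at percentiles 16.8 and 64.4, with replicate 1 below its array's median. The files used here hold no detection call, so whether this level is above background is unknown. If it is not, the WT rise and fold below are lower bounds.

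The mean Slc6a13 rise at 3 h was 3.85 in WT (14.4-fold), the fifth highest of all genes, and 2.55 in KO (5.88-fold). At 6 h it was 3.90 in WT and 3.15 in KO, the largest rise of any gene in KO. From 3 h to 6 h Slc6a13 changed by 0.05 in WT (95% interval -0.25 to 0.36, adjusted p = 0.838), while in KO it rose by 0.60 (adjusted p = 0.013). The KO step was not called without replicate 2 of KO 3 h (0.37, adjusted p = 0.141) or replicate 1 of KO 6 h (0.57, adjusted p = 0.0734). At 24 h it differed from 0 h by 0.24 in WT (adjusted p = 0.28) and by -0.09 in KO (adjusted p = 0.709).

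Tmem200a was high at both 3 h and 6 h in each genotype. In WT it read 8.95 and 9.33 at 0 h, 12.67, 12.68 and 12.81 at 3 h, 12.41 and 12.38 at 6 h, and 9.24 and 9.04 at 24 h. In KO it read 9.52 and 9.03 at 0 h, 12.65 and 12.04 at 3 h, 12.02 and 12.08 at 6 h, and 9.11 and 8.76 at 24 h. The 0 h and 24 h arrays overlapped in both genotypes, and the 3 h and 6 h arrays overlapped in KO but not in WT. The mean rise at 3 h was 3.58 in WT (11.9-fold) and 3.07 in KO (8.39-fold). At 6 h, 91.0% of the WT rise and 90.4% of the KO rise was left.

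The step from 3 h to 6 h was -0.32 for Tmem200a in WT (95% interval -0.70 to 0.05, adjusted p = 0.212) and -0.29 in KO (95% interval -0.71 to 0.12, adjusted p = 0.315). In a fit of the WT 3 h and 6 h arrays alone the WT step passed (adjusted p = 0.00168), and in KO it passed without replicate 2 of KO 3 h (-0.60, adjusted p = 0.0474). At 24 h Tmem200a was within 0.01 of its start in WT (-0.00, adjusted p = 0.995), and in KO the difference was -0.34 (adjusted p = 0.183; -0.58 and 0.0466 without replicate 2 of KO 0 h).

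Col8a2 rose, fell from 3 h on, and in KO ended below its start. Its brightest probe read 9.48 and 9.62 at 0 h in WT, 13.05, 13.29 and 13.13 at 3 h, 12.50 and 12.40 at 6 h, and 9.16 and 9.25 at 24 h. In KO it read 10.30 and 10.09 at 0 h, 13.15 and 12.63 at 3 h, 12.28 and 12.41 at 6 h, and 9.46 and 9.34 at 24 h. No pair of times overlapped within either genotype. The mean rise at 3 h was 3.61 in WT (12.2-fold) and 2.69 in KO (6.46-fold), and at 6 h 80.4% and 79.7% of it was left.

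From 3 h to 6 h Col8a2 fell by 0.71 in WT (adjusted p = 0.00096) and by 0.55 in KO (adjusted p = 0.0105). The KO step was not called without replicate 1 of KO 3 h (-0.28, adjusted p = 0.106) or replicate 1 of KO 6 h (-0.48, adjusted p = 0.0813). At 24 h Col8a2 in KO was 0.80 below its own start (1.74-fold lower, adjusted p = 0.000235), and -0.90 to -0.69 with each array left out. In WT the difference was -0.34 (adjusted p = 0.0642).

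**Figure D1:**
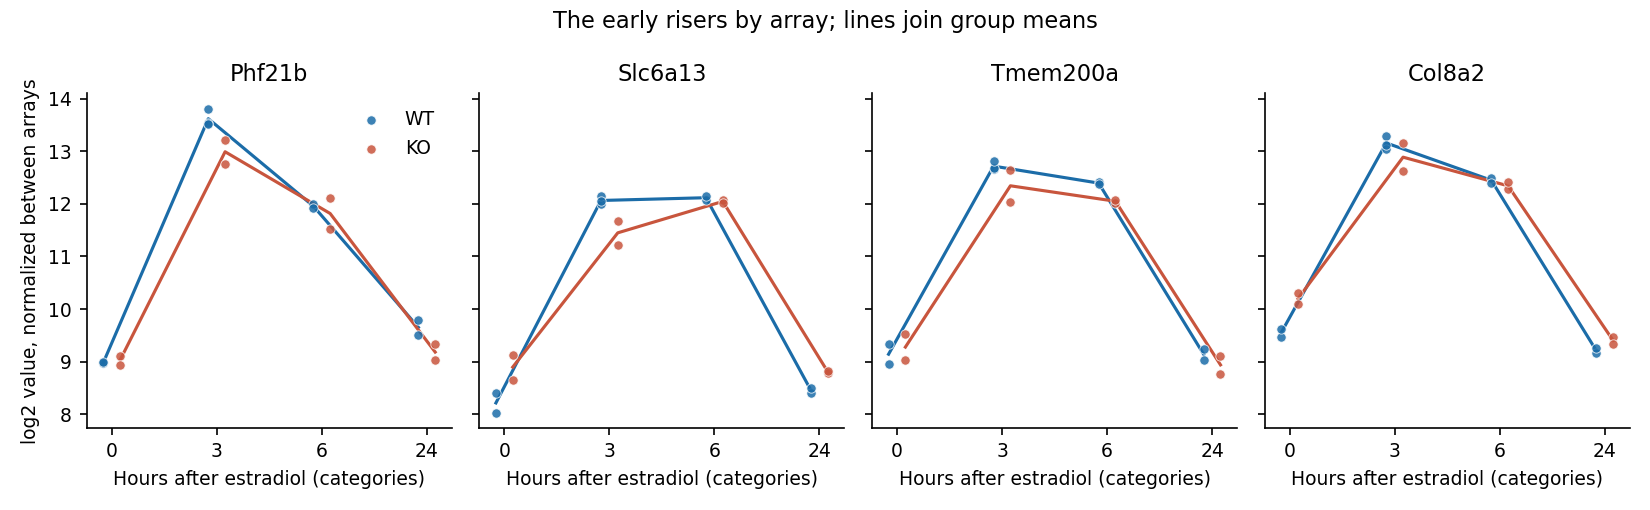
Each point is 1 array, with log2 intensity on the vertical axis and the 4 time points as categories on the horizontal axis, for Phf21b, Slc6a13, Tmem200a and the brightest Col8a2 probe in WT and KO, and lines join group means. All 4 genes are high at 3 h and 6 h and far lower at 24 h. Phf21b in WT is then 0.67 above its start and Col8a2 in KO 0.80 below. Phf21b in WT drops from a mean of 13.62 at 3 h to 11.96 at 6 h.

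The other Col8a2 probes were dimmer and moved less. Probe ILMN_2839646 averaged 7.95 ± 0.01 in WT at 0 h (SD, n = 2), at percentiles 8.20 and 7.36 of its arrays, and 9.55 ± 0.07 at 3 h (n = 3), a rise of 1.60. Probe ILMN_2503839 averaged 8.07 ± 0.07 at 0 h and 8.83 ± 0.09 at 3 h, a rise of 0.76. These are 44.3% and 21.0% of the rise of the brightest probe, ILMN_2688966. All 3 rose early and correlated over the 17 arrays at 0.906 to 0.987 (Pearson's r, a description, since the arrays share the time course).

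The late results differed between the Col8a2 probes. From 6 h to 24 h they changed by -3.24, -1.13 and -0.33 in WT and by -2.94, -0.99 and -0.31 in KO. The level of KO at 24 h below 0 h passed at the brightest probe alone: it was -0.11 at ILMN_2839646 (adjusted p = 0.573) and -0.07 at ILMN_2503839 (adjusted p = 0.741), adjusted over all probes.

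**Figure D2:**
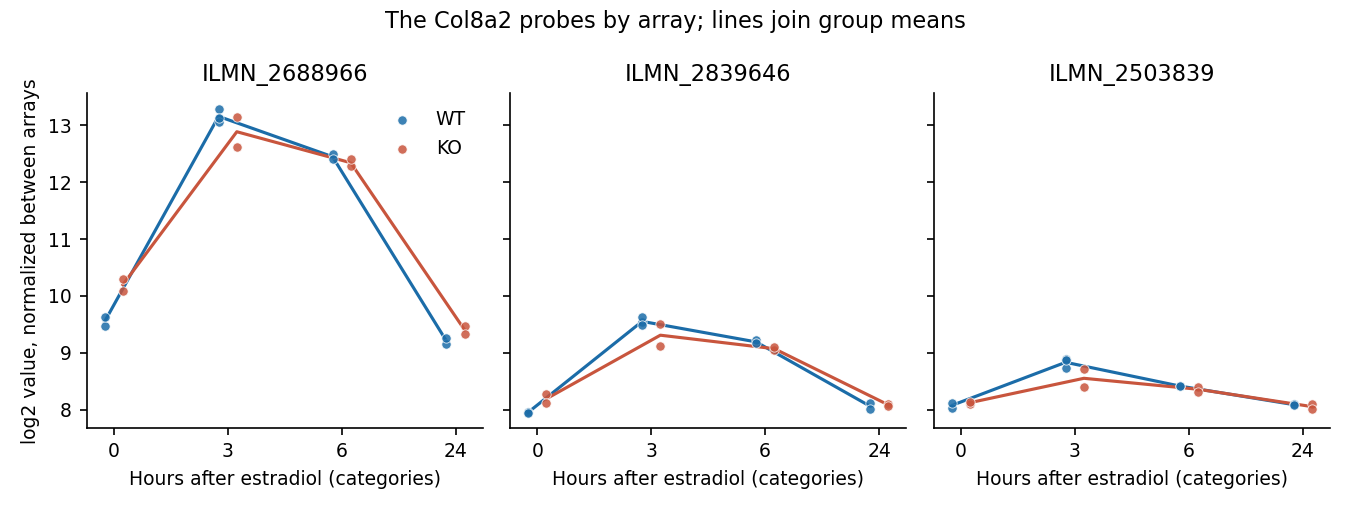
The log2 intensity of the 3 Col8a2 probes on each array, by time after E2 and genotype. The brightest probe spans 9.16 to 13.29 in WT, and the other probes sit near the low end of the array at 0 h and 24 h and rise at 3 h by 1.60 and 0.76 in WT.

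From 6 h to 24 h all 4 genes fell in both genotypes, while 19.0% of all genes fell in WT and 18.6% in KO. The genes were chosen for high values at 6 h, so nothing is read from this count and the falls are given as a description. Slc6a13 changed by -3.67 in WT and -3.24 in KO, Tmem200a by -3.26 and -3.11, Col8a2 by -3.24 and -2.94, and Phf21b by -2.31 and -2.64.

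Against 0 h, 1 of 4 was called higher at 24 h in WT (Phf21b), where 18.9% of all genes were, and 1 of 4 was called lower in KO (Col8a2), where 23.1% were. From 3 h to 6 h, 2 of 4 fell in WT (12.7% of all genes) and 2 of 4 fell in KO (11.7%), with Slc6a13 rising in KO (11.7% of all genes). Phf21b and Col8a2 are the pair called lower in both genotypes, though Col8a2 in KO passed at its brightest probe alone. At the other Col8a2 probes the KO step was -0.24 (adjusted p = 0.132) and -0.19 (adjusted p = 0.193), adjusted over all probes. All of these comparisons share arrays with the choice of the genes.

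The arrays labelled KO started higher for Slc6a13 and Col8a2. Slc6a13 was 0.68 higher in KO than in WT at 0 h (1.60-fold, 95% interval 0.35 to 1.02, adjusted p = 0.0254), and Col8a2 was 0.65 higher (1.57-fold, 0.35 to 0.94, adjusted p = 0.0166). No array of KO overlapped WT for either gene, as for 44.5% of all genes. The calls are 2 of 4, against 2.24% of all genes called higher in KO at 0 h. The 0 h arrays helped to choose the genes, and a choice leaning on the WT rise would favour low WT values at 0 h. Nothing is read from this count. Phf21b differed by 0.05 (95% interval -0.35 to 0.44) and Tmem200a by 0.14 (-0.28 to 0.55), and both overlapped.

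These differences at 0 h rest on few arrays. Without replicate 1 of KO 0 h neither passed (Slc6a13 0.45, adjusted p = 0.208; Col8a2 0.54, 0.127), nor without replicate 1 of WT 0 h (0.50, 0.211; 0.57, 0.119). At the other Col8a2 probes the difference was 0.24 (adjusted p = 0.269) and 0.05 (adjusted p = 0.915). The mean of 5 adipocyte markers, as log2 deviation from each gene's mean over arrays, was 2.03 and 2.09 in KO at 0 h against 0.86 and 1.45 in WT. The macrophage mean was 0.37 and 1.15 in KO against 0.07 and 0.09 in WT. The mean of 4 granulocyte markers was -0.08 and 1.75 in KO against -0.05 and -0.14 in WT. The part of any of these marker levels in the difference was not tested.

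At 3 h all 4 means were lower in KO, and Slc6a13 alone passed. It was 0.62 lower (1.53-fold, 95% interval -0.92 to -0.31, adjusted p = 0.0276), 1 of 4 against 2.07% of all genes called lower. It did not pass without replicate 2 of KO 3 h (-0.39, adjusted p = 0.268), replicate 2 of WT 3 h (-0.58, 0.0836) or replicate 3 of WT 3 h (-0.62, 0.077). Phf21b was -0.63 (95% interval -0.99 to -0.27, adjusted p = 0.0517), with both KO arrays below all 3 WT arrays, as for Slc6a13 and Tmem200a. In 32.7% of all genes the groups did not overlap. The 3 h arrays also helped to choose the genes, and a choice leaning on the WT rise would favour high WT values at 3 h. Nothing is read from the 1 of 4 called. Of 17 measured early estrogen-response genes, a list chosen with earlier results of these data known, 3 were called lower in KO at 3 h (median -0.25) and 0 higher. Tmem200a was -0.37 (adjusted p = 0.273) and Col8a2 -0.27 (adjusted p = 0.262).

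The KO 3 h arrays were themselves apart. All 4 genes read lower on replicate 2 than on replicate 1, by as much as 0.62 for Tmem200a. The adipocyte mean was 0.43 on replicate 2 and -0.88 on replicate 1. Macrophage means were 0.495 and -0.22, and smooth muscle means -0.11 and 0.33, in the same order. The other marker lists differed less. The part of any of these marker levels in the difference between the 2 arrays was not tested. Without replicate 1 all 4 were lower in KO and passed (Phf21b -0.86, adjusted p = 0.0197; Tmem200a -0.68, 0.0376; Col8a2 -0.53, 0.0141; Slc6a13 -0.84, 0.00774). Without replicate 2 none of the 4 passed (Phf21b -0.40, adjusted p = 0.379; Slc6a13 -0.39, 0.268; Tmem200a -0.067, 0.919; Col8a2 -0.0088, 0.985), so the size of the difference at 3 h depended on which of these arrays was used.

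At 6 h no member passed, against 0.631% of all genes called in either direction, and none had an unadjusted p under 0.05 in limma. The differences ran from -0.35 for Tmem200a (95% interval -0.76 to 0.07) to -0.07 for Slc6a13 (-0.41 to 0.26). The 24 h arrays take no part in the rises that chose the genes, though earlier results of these data were known at the choice. At 24 h no member passed either, against 8.35% of all genes, and 2 had an unadjusted p under 0.05 in limma. Those were Phf21b, at -0.47 (95% interval -0.87 to -0.07, adjusted p = 0.147), and Slc6a13, at 0.35 (0.02 to 0.69, adjusted p = 0.206). KO and WT did not overlap at 24 h for Phf21b, Slc6a13 and Col8a2, as for 59.5% of all genes.

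The rise itself, set as KO minus WT in the change from 0 h, differed at 3 h for Slc6a13 and Col8a2. The Slc6a13 rise was 1.30 smaller in KO (95% interval -1.75 to -0.84, adjusted p = 0.0135), which left 66.3% of the WT rise on the log2 scale, given the low WT level at 0 h described above. Leaving out each of the 9 arrays in turn gave -1.53 to -1.06, with adjusted p between 0.00416 and 0.0451. The fit of the 4 groups alone gave an adjusted p of 0.0977. The Col8a2 rise was 0.92 smaller (adjusted p = 0.0338), or 74.6% of the WT rise, and this passed in 2 of 9 leave-one-out fits, with adjusted p up to 0.0991.

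The arrays without which Col8a2 was not called were both KO 0 h replicates (-0.81 and -1.02), replicate 2 of KO 3 h (-0.66), replicate 1 of WT 0 h (-0.84) and all 3 of WT 3 h (-0.97, -0.85 and -0.93). At the other Col8a2 probes the rise difference was -0.48 (adjusted p = 0.102) and -0.33 (adjusted p = 0.257), adjusted over all probes. The rise differences of Slc6a13 and Col8a2 are 2 of 4 that passed, for Col8a2 at its brightest probe alone. Of all genes, 0.489% passed with a KO change below the WT change, whether they rose or fell. The arrays of 0 h and 3 h helped to choose the genes, so nothing is read from this count. Of 17 measured early estrogen-response genes, a list chosen with earlier results known, 2 passed in the same direction (median -0.23) and 0 in the other. The change for Phf21b was -0.68 (adjusted p = 0.228) and for Tmem200a -0.51 (adjusted p = 0.42). At 6 h the differences were -0.75 for Slc6a13 (adjusted p = 0.197; -0.94 and 0.0403 without replicate 2 of WT 0 h) and -0.75 for Col8a2 (adjusted p = 0.137). None of the 4 passed there, against 0.400% of all genes, and 2 had an unadjusted p under 0.05 in limma. At 24 h none of the 4 passed (7.27% of all genes did), with 1 unadjusted p under 0.05, for Col8a2. A test of all 3 later times together passed for Slc6a13 (adjusted p = 0.0116) and Col8a2 (0.0324), against 6.83% of all genes. This test also uses the 0 h, 3 h and 6 h arrays that helped to choose the genes, so nothing is read from its count. Its dependence on single arrays or on the Col8a2 probe was not examined.

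**Figure D3:**
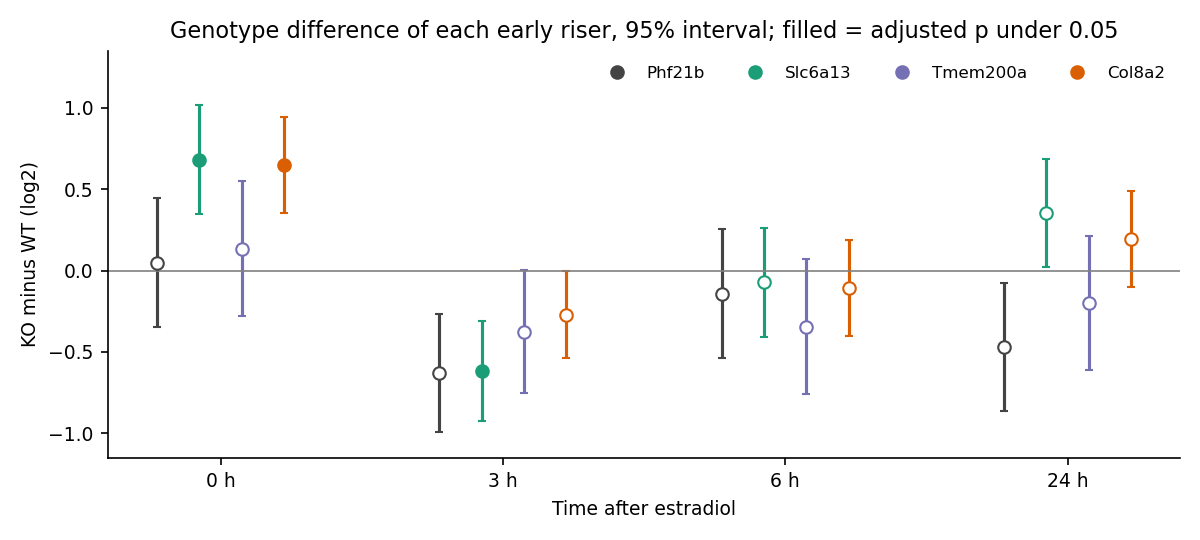
The KO minus WT difference in log2 intensity with its 95% interval at each time, for the 4 genes. At 0 h the intervals of Slc6a13 and Col8a2 lie above 0, with differences of 0.68 and 0.65. At 3 h all 4 differences are below 0, but the Tmem200a interval reaches 0.0036 and Slc6a13 alone passed. All intervals at 6 h cross 0.

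Among themselves the 4 genes correlated over the 17 arrays at 0.923 to 0.987, with Tmem200a and Col8a2 closest and Phf21b and Slc6a13 farthest apart. All arrays share 1 time course, so these are descriptions. The genes most like Phf21b were Cc2d1a (r = 0.994), 2310022B05Rik (0.993) and Mapkapk2 (0.990), a kinase downstream of p38. Those most like Slc6a13 were Nos3 (0.985), the endothelial nitric oxide synthase, Aen (0.983) and Gal (0.983), the galanin precursor. Tmem200a was most like Crispld2 (0.993), Tlnrd1 (0.991) and Synpo (0.991), and Col8a2 was most like Synpo (0.989), Crispld2 (0.988) and Usp36 (0.987). The rises of these genes at 3 h in WT ran from 0.86 (Aen) to 2.94 (Synpo).

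The 4 genes were chosen for their rise, so the changes of their relatives are given for themselves and not set against it. Of 12 measured genes of the LSD1-CoREST complex and PHF21B relatives, 3 rose and 3 fell at 3 h in WT (median 0.04, all genes -0.01). Gse1 rose by 1.62 and Kdm1a, the LSD1 demethylase, by 0.36, while Zmym3 fell by 1.16 and Kdm1b by 0.55. Phf21a, the closest relative of Phf21b, differed by -0.11 and did not pass. Its probes averaged 8.23 and 8.11, near the array median of 8.2, so whether Phf21a was above background is unknown.

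Of 11 measured SLC6 transporters other than Slc6a13, 3 rose and 2 fell at 3 h in WT (median 0.10). Slc6a2, the noradrenaline transporter, rose by 2.02 and Slc6a12, which carries betaine and GABA, by 1.51, and Slc6a6, the taurine transporter, fell by 1.13. Of 10 genes that make, break down or sense GABA and taurine, 1 rose and 6 fell (median -0.35). Cdo1, which starts taurine synthesis from cysteine, fell by 1.92, Gabrp by 1.28 and Csad by 0.99, and Gad2, named after its value was seen, rose by 0.59. At 24 h in WT 6 of these 10 were lower than at 0 h (19.0% of all genes) and none higher.

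Tmem200b, the measured relative of Tmem200a, fell by 0.58. Of 7 network-forming and short-chain collagens, none rose and 2 fell (median -0.14): Col4a5, a basement membrane chain, by 0.95 and Col8a1, the partner chain of Col8a2, by 0.52. The Col8a1 probes averaged 8.415 and 8.3685, near the array median of 8.2. Of 14 collagen-modifying enzymes and chaperones, 4 rose and 4 fell (median 0.11). P4ha2, a prolyl hydroxylase, rose by 2.76 and Plod1, a lysyl hydroxylase, by 0.75, while Lox, which crosslinks collagen, fell by 1.10. Of 6 collagen receptors, 2 rose and 3 fell.

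Of 17 early estrogen-response genes, 14 rose and 1 fell at 3 h in WT (median 1.86). Fos rose by 3.49, Ramp3 by 3.07, Greb1 by 2.80 and Wnt4 by 2.75. Gadd45g rose by 2.58 at its brightest probe and by 3.76 at its other probe. Across all genes 22.2% rose and 24.5% fell in this comparison. This list, like the others, was chosen with earlier results of these data known, so nothing is read from its count. Several relatives have dimmer probes besides the one used, and the change there was often small, at 0.02 to 0.12 for the other 3 Gse1 probes, though 1 other P4ha2 probe gave 2.50.

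**Figure D4:**
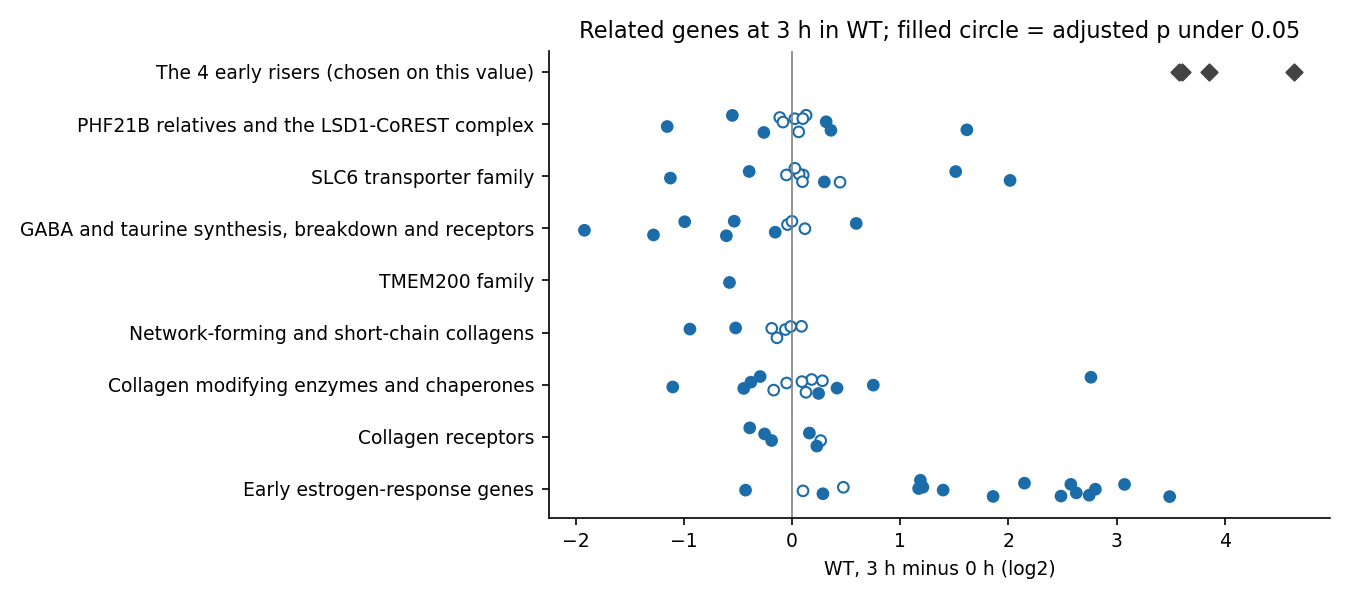
The WT log2 change at 3 h of each measured gene in the related lists, with the 4 chosen genes for scale. The lists were chosen with earlier results of these data known. The chosen genes lie at 3.58 to 4.64, early estrogen-response genes have a median of 1.86, and the other lists lie mostly near or below 0, with P4ha2 at 2.76 and Slc6a2 at 2.02 as the highest of theirs.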

How the data were processed

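Total uterine RNA of 17 samples was hybridised to Illumina mouse arrays. The deposited values are log2 intensities; BeadStudio is named in the submitters' processing notes, with no version. The authors' log2 values have the same quantiles on all arrays, as quantile normalization gives; background correction is not stated. Of 45281 probes, 34885 had 1 gene symbol, 18 several and 10378 no annotation. The brightest 1-symbol probe above its array's median on at least 2 arrays stood for a gene (14737 genes). limma 3.58.1 in R 4.3.3 fitted 8 group means (residual df 9, prior df 4.56), and Benjamini-Hochberg adjustment ran over all genes within a comparison, two-sided, at 0.05. Each of the 4 genes had 13 comparisons tested (52 tests). The lists and members were chosen with earlier results of these data known. Named genes come from the members, the 3 genes most alike, the up to 4 largest WT 3 h changes per list and the paralogs. List genes that passed KO against WT at any time, such as Gadd45g, could be named too. Not all that qualified are named. No array depth exists, and the number of arrays limits precision. The tests were checked on simulated data. Replicate numbers did not pair samples.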

Additional observations from a re-analysis of the deposited data

Results flagged for a closer look

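The difference between the genotypes in the change from 0 h to 3 h passed for Slc6a13, at -1.30 on the log2 scale (limma, adjusted p = 0.0135), with a rise of 3.85 in WT and 2.55 in KO. It also passed for Col8a2 at its brightest probe, at -0.92 (adjusted p = 0.0338), with a rise of 3.61 in WT and 2.69 in KO. The other Col8a2 probes gave -0.48 (adjusted p = 0.102) and -0.33 (adjusted p = 0.257), adjusted over all probes, and did not pass. The arrays of 0 h and 3 h helped to choose the genes. KO minus WT was 0.68 at 0 h and -0.62 at 3 h for Slc6a13, and both passed. The 0 h call was lost without replicate 1 of KO 0 h (adjusted p = 0.208) or of WT 0 h (0.211), and the 3 h call in 3 of 5 fits that left out 1 array. It was 0.65 at 0 h, which passed, and -0.27 at 3 h, which did not (adjusted p = 0.262), for Col8a2. Its rise difference passed in 2 of 9 fits that left out 1 array.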

How the results depend on the processing

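Over 52 tested results, other settings gave 468 values. Of these, 445 kept their side of the threshold, 14 lost the call, 9 gained it and 0 changed sign with a call. A sign change with no call before or after counted as kept, here and with 1 array left out. Slc6a13 WT 6 h minus 3 h went from 0.05 to -0.01 in this way. Leaving out 1 array gave 268 values, of which 243 kept, 19 lost and 6 gained the call. With the mean of all probes, Col8a2 KO minus WT at 0 h was 0.31 (adjusted p = 0.11) and its rise difference at 3 h -0.58 (0.0696). Phf21b KO minus WT at 3 h, at -0.63, passed with the most variable probe (0.0497) and with an intensity trend (0.0477). With array weights Slc6a13 gave 0.68 at 0 h (0.0545), -0.61 at 3 h (0.0745) and 0.35 at 24 h (0.0309), Phf21b -0.47 at 24 h (0.0174) and the Col8a2 rise difference -0.92 (0.0742). Fits of only the compared groups gave Col8a2 WT 24 h minus 0 h -0.34 (0.032), Tmem200a WT 6 h minus 3 h -0.32 (0.00168), Slc6a13 and Col8a2 KO 6 h minus 3 h 0.60 (0.0785) and -0.55 (0.129), the same genes at 0 h 0.68 (0.286) and 0.65 (0.127), Phf21b and Slc6a13 at 24 h -0.47 (0.0233) and 0.35 (0.00355), and their rise differences, Slc6a13 and Col8a2, -1.30 (0.0977) and -0.92 (0.148). The cause was not tested.

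The replicate number did not pair the samples: deviations of same-numbered arrays correlated at -0.20 to 0.30 over 28 group pairs (median -0.00), and 6 pairs exceeded 0.1. With the number as a replicate block Slc6a13 KO minus WT at 3 h was -0.62 (0.093) and the Col8a2 rise difference -0.93 (0.0655), and genes called in KO minus WT at 3 h went from 624 to 274. With the title letter as the replicate block Col8a2 WT 24 h minus 0 h was -0.34 (0.0455) and Slc6a13 KO 6 h minus 3 h 0.52 (0.0618).

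With 1 array left out, KO minus WT at 0 h ran from 0.45 to 0.92 for Slc6a13 and from 0.54 to 0.75 for Col8a2, and at 3 h from -0.86 to -0.40 for Phf21b, -0.84 to -0.39 for Slc6a13, -0.68 to -0.067 for Tmem200a and -0.53 to -0.0088 for Col8a2. The rise differences ran from -1.18 to -0.66 for Col8a2 at 3 h and from -0.99 to -0.52 for Slc6a13 at 6 h. KO 6 h minus 3 h ran from 0.37 to 0.82 for Slc6a13, -0.60 to 0.014 for Tmem200a and -0.81 to -0.28 for Col8a2. Phf21b WT 24 h minus 0 h ran from 0.53 to 0.82 and Tmem200a KO 24 h minus 0 h from -0.58 to -0.10.

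Counts of all genes called moved by over 1.5 times in places: in KO minus WT from 653 to 8 and 367 at 0 h, from 624 to 351 and 246 at 3 h, from 93 to 0 and 159 at 6 h, and from 1231 to 3047 and 3242 at 24 h (compared groups only, then array weights). The rise differences at 3 h went from 161 to 16 and 46. At 3 h, leaving out 1 array gave 200 to 1142 genes for KO minus WT and 24 to 547 for the rise difference. Of 2512 counts of list genes called, 180 moved, including those without a WT 0 h array, chosen after seeing the data.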

Other observations

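Genes on either side of the 4 were looked up by position after their values were seen, at distances that differed widely. Slc6a12 lies 4.9 kb from Slc6a13 and rose by 1.51 in WT and 1.02 in KO at 3 h (limma, adjusted p = 2.82e-06 and 0.000289). Usp18, 29.4 kb away on the other side, rose by 0.74 and 0.83. For Phf21b, Arhgap8 at 12.5 kb rose by 0.54 and Nup50 at 67.3 kb by 0.61 in WT. For Col8a2, Trappc3 at 10.9 kb rose by 0.63 in WT, and Adprhl2 at 2 kb differed by 0.12 (adjusted p = 0.111). The genes looked up for Tmem200a lie farther off. Smlr1 at 454.9 kb differed by -0.10 (adjusted p = 0.236) and Samd3 at 150.4 kb by 0.00 (adjusted p = 0.976).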
